A study of Drosophila melanogaster with 6 samples.

Results

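The genes described here encode the proteins of the cytosolic ribosome of Drosophila melanogaster. They were taken by symbol: array rows that map to exactly 1 gene whose name starts with RpL or RpS and a digit, together with the stalk genes RpLP0, RpLP1 and RpLP2 and the genes sta and sop. Of 13346 genes named on the array, 41 met this rule, 24 with RpL and 17 with RpS symbols, and each had 1 row. The rule fits 92 genes of the RefSeq annotation of the fly, so the 41 are a part of the ribosome, and neither sta nor sop is among them.

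The cytosolic ribosome has a small subunit, which reads the messenger RNA, and a large subunit, which joins amino acids. Each particle holds nearly every ribosomal protein in a single copy, and the messages for these proteins are among the most abundant and most evenly regulated in a cell. In flies, losing a copy of many of these genes gives the Minute phenotype of slow development and short, thin bristles. Some ribosomal proteins are encoded by a pair of genes, and in several pairs the minor copy is known mainly from the germline.

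RNA came from fly heads and was hybridised to 6 GeneChip Drosophila Gene 1.0 ST arrays, 3 for a control and 3 for a pool of seizure-prone lines. The driver repo-GAL4, which switches on transgenes in most glial cells, was present in every fly. Control flies combined it with an empty TRiP RNAi vector. For the pool, equal amounts of RNA from 7 genotypes were mixed, of which 5 were RNA interference lines (nrv2-RNAi, comt-RNAi, ATPalpha-RNAi, COX7A-RNAi, SesB-RNAi) and 2 overexpressed a protein (UAS-htt.12Q.FL, UAS-Dube3a). Flies were about 3 to 5 days old and were kept at 25 °C, and each genotype gave 15 to 25 heads. The labels name the tissue brain, but whole heads were extracted. The glial driver limits the pool as a model: a change inside glia is diluted by the other cells of the head, a change in 1 line by the other 6, and no value can be assigned to a line. The labels do not state whether arrays of the same group had separate extracts, so the p-values reflect only array-to-array spread, possibly technical. In RNA of whole heads, fewer cells of a type and less RNA per cell cannot be told apart.

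The arrays were alike in scale, with medians of 5.53 to 5.63 log2 units and correlations across rows of 0.9967 to 0.9978 within groups and 0.9952 to 0.9960 between groups. Defining markers of neurons and glia were present. On the control and pool arrays the neuronal gene elav stood at 9.50 ± 0.07 and 9.64 ± 0.08, and the glial gene repo at 7.99 ± 0.04 and 7.82 ± 0.05 (SD, n = 3 per group). The deposited values are on a log2 scale, on which a difference of 1 is a doubling. A value depends on the probes of its row as well as on the RNA, so values are compared between groups for the same gene and not between genes.

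Cytosolic ribosomal protein genes read slightly lower in the pool as a group, and no single gene among them passed the test. The pool mean was lower for 36 of the 41 genes, against 50.2% of all 16322 rows. The median log2 difference, pool minus control, was -0.10, which corresponds to -6.41% on the linear scale, while the median over all named genes was -0.00091. The differences ran from -0.26 to 0.06, and the middle part of the members (first to the third quartile) from -0.12 to -0.03. In limma, fitted over all rows with Benjamini-Hochberg adjustment, 0 of 41 had an adjusted p under 0.05, and the smallest was 0.216. The same test called 2.9% of all rows. At an unadjusted p under 0.05 there were 9 members, all lower in the pool, beside 14.8% of all rows, and 6.85% of all rows in the downward direction. With 1 array left out the number of members under that p was between 1 and 8, and lowest without control replicate 1.

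The arrays of the groups separated more often than the test made calls, in all rows as well as in the members. In 18 of the 41 genes, or 43.9%, the 3 pool arrays all lay below the 3 control arrays, against 10% of all rows. In 0 of the 41 did the 3 pool arrays all lie above the controls, against 11.4% of all rows. The other 23 overlapped, and 18 of these had the lower mean in the pool. The share of all rows wholly below the control rose with brightness. It was 7.36% at a mean under 5, 9.57% from 5 to 8, 13.0% from 8 to 10 and 22.0% at 10 or more. The share of all rows wholly above the control rose too, at 5.31%, 12.5%, 19.9% and 23.5% in the same ranges. Members wholly below the control numbered 0 of 8, 3 of 7, 5 of 12 and 10 of 14 in these ranges.

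**Figure D1:**
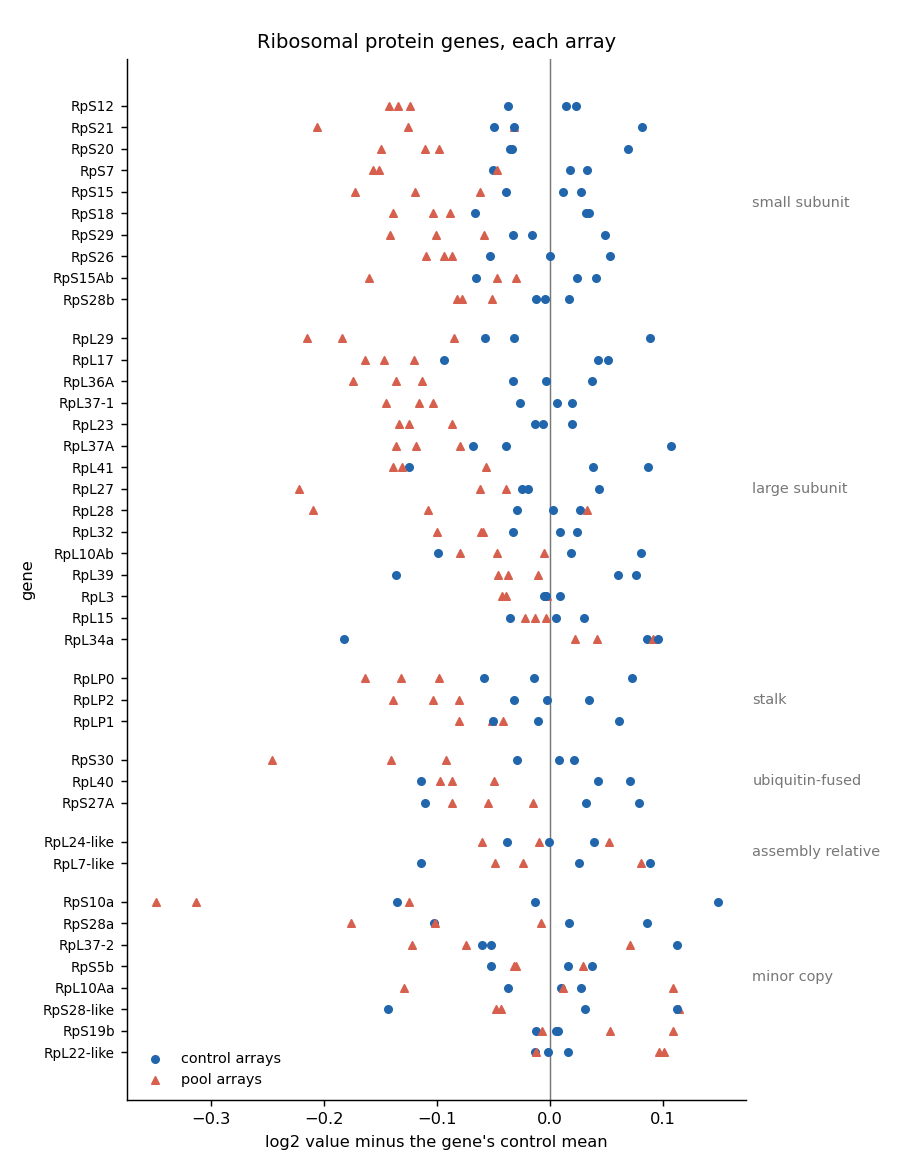
Value of each of the 41 genes on each of the 6 arrays, in log2 units relative to the gene's own control mean, with genes grouped by role. Circles are the 3 control arrays and triangles the 3 pool arrays. In 18 genes all 3 triangles lie to the left of all 3 circles, and in 0 genes all to the right.

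Among the 10 genes of the small subunit, all 10 had lower means in the pool, with differences from -0.13 to -0.07 and a median of -0.11. In 7 of the 10 every pool array lay below every control array, against 10% of all rows and 22.0% of rows with a mean of 10 or more. The test called 0 of the 10, against 2.9% of all rows. RpS12, a small subunit protein known in flies for its part in sensing cells with a poorer ribosomal protein dose, read 11.54, 11.48 and 11.53 on the control arrays. On the pool arrays it read 11.39, 11.38 and 11.37. Every pool value was below every control value, and both groups were tight. The log2 difference was -0.13 with a standard error of 0.048 (95% interval -0.25 to -0.02, limma adjusted p = 0.245). This gene and RpL37-1 were called only when the variance prior was given a trend and made robust, with limma adjusted p of 0.0306 and 0.0339; across the settings tried, the adjusted p of RpS12 ran from 0.031 to 0.441 and that of RpL37-1 from 0.034 to 0.500. That setting called 5.28% of all rows.

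RpS20, which sits in the head of the small subunit, read 11.45, 11.35 and 11.35 in the control and 11.28, 11.27 and 11.23 in the pool. The pool values were all lower, with control replicate 1 the highest of the 6 arrays (difference -0.12, adjusted p = 0.359). RpS18 read 11.78, 11.78 and 11.68 in the control and 11.61, 11.64 and 11.66 in the pool. Its highest pool value lay only just below its lowest control value (difference -0.11, adjusted p = 0.393). RpS15, a protein near the decoding site, read 6.55, 6.57 and 6.50 against 6.37, 6.48 and 6.42, and RpS26, a protein of the messenger RNA exit channel, read 8.76, 8.71 and 8.66 against 8.62, 8.60 and 8.61. Neither overlapped, with differences of -0.12 and -0.10 (adjusted p = 0.366 and 0.442).

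RpS29, whose row was the brightest among the members, read 12.98, 12.91 and 12.89 in the control and 12.79, 12.87 and 12.83 in the pool. Control replicate 3 and pool replicate 2 were the nearest arrays without crossing, and the difference was -0.10 (adjusted p = 0.432). RpS28b, the main gene of its pair, read 12.43, 12.41 and 12.40 in the control and 12.34, 12.36 and 12.33 in the pool, again without overlap, with a difference of -0.07 (adjusted p = 0.567). RpS7 and RpS21 overlapped by 1 array each, at differences of -0.12 (adjusted p = 0.385 and 0.451). RpS15Ab, which has a second gene for the same protein and is not the same protein as RpS15, also overlapped (difference -0.08, adjusted p = 0.613).

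The large subunit was less even than the small subunit, although the difference between the subunits was not tested. Of 15 genes 14 had lower means in the pool and 0 were called. In 8 of the 15 every pool array lay below every control array, against 10% of all rows. Their median was -0.11 and their range -0.16 to 0.05. RpL29 read 8.71, 8.59 and 8.56 in the control and 8.44, 8.41 and 8.54 in the pool. The pool was lower throughout, with pool replicate 3 just below control replicate 3, and the difference was -0.16 with a standard error of 0.063 (adjusted p = 0.288). RpL36A read 9.84, 9.80 and 9.77 in the control and 9.67, 9.69 and 9.63 in the pool, with a clear gap and a difference of -0.14 (standard error 0.050, adjusted p = 0.235). RpL17, which lies at the exit of the peptide tunnel, read 6.19, 6.18 and 6.04 against 5.99, 6.02 and 5.97. Control replicate 3 was close to the pool, and the difference was -0.14 (adjusted p = 0.305).

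RpL37-1 read 12.15, 12.14 and 12.11 in the control and 11.99, 12.03 and 12.02 in the pool, a difference of -0.12 (adjusted p = 0.297). RpL23, a protein of the face toward the small subunit, read 10.79, 10.79 and 10.82 in the control and 10.67, 10.71 and 10.67 in the pool, a difference of -0.12 (adjusted p = 0.322). Both genes had group SDs of at most 0.025, so a shift this small stood outside the spread of the arrays without passing the adjustment over all rows. RpL37A, which is a different protein from RpL37-1 in spite of its name, and RpL27 were also lower on every pool array, by -0.11 in both (adjusted p = 0.463 and 0.505). RpL32, long used in flies as a reference gene for quantitative PCR under the name rp49, read 10.55, 10.59 and 10.61 in the control and 10.48, 10.52 and 10.52 in the pool. Its groups did not overlap, but its difference of -0.07 did not pass the test (95% interval -0.19 to 0.04, adjusted p = 0.561).

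Other large subunit genes showed little difference or none that exceeded the spread. RpL3, a protein close to the site of peptide bond formation, read 10.26, 10.25 and 10.25 in the control and 10.25, 10.21 and 10.22 in the pool (difference -0.03, 95% interval -0.14 to 0.08). RpL15 read 10.87 ± 0.03 and 10.86 ± 0.01 (SD, n = 3 per group). RpL39, a small protein that lines the peptide tunnel, stood at -0.03, and RpL10Ab, the protein of the mobile side arm of the large subunit, at -0.04. RpL41, the smallest ribosomal protein, read 12.51, 12.46 and 12.30 in the control and 12.29, 12.37 and 12.29 in the pool. Its control replicate 3 lay among the pool arrays, and the difference was -0.11 (adjusted p = 0.525). RpL28 stood at -0.09 with overlapping groups. RpL34a was the only gene of the subunit with a higher mean in the pool, at 8.78, 8.79 and 8.51 in the control and 8.79, 8.72 and 8.74 in the pool. That sign rested on control replicate 3: with it the difference was 0.05, and without it -0.04.

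**Figure D2:**
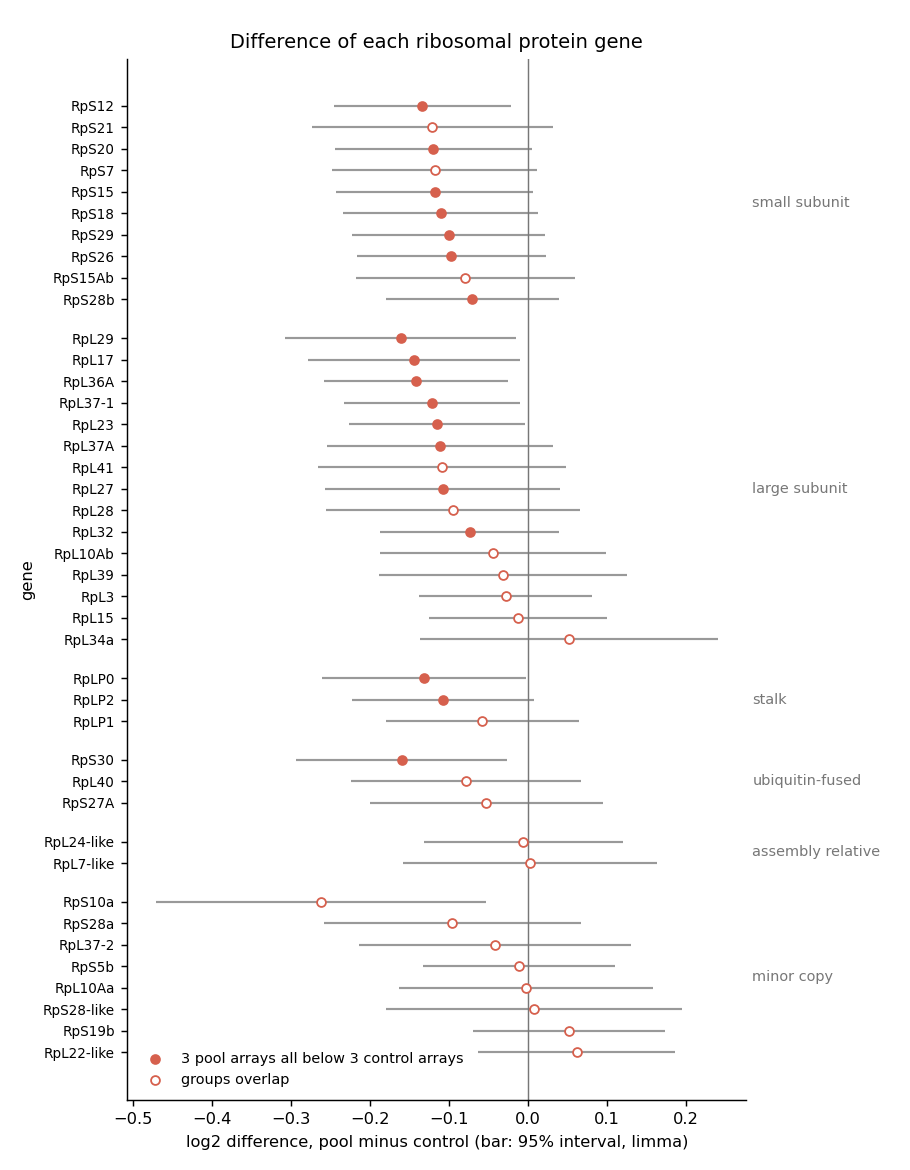
Log2 difference of each gene between the mean of 3 pool arrays and the mean of 3 control arrays, with the 95% interval from limma as a bar and genes grouped by role. Filled points mark the 18 genes whose groups did not overlap; intervals lie wholly below 0 for 9 of the 41 genes, and 36 points lie left of 0.

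The lateral stalk recruits the elongation factors to the ribosome and is built from RpLP0 at its base and the acidic proteins RpLP1 and RpLP2. All 3 genes had lower means in the pool and 0 were called. RpLP0 read 11.27, 11.18 and 11.14 in the control and 11.10, 11.07 and 11.03 in the pool, a difference of -0.13 with a standard error of 0.056 (adjusted p = 0.328). RpLP2 read 11.28, 11.21 and 11.24 against 11.16, 11.14 and 11.10 (difference -0.11, adjusted p = 0.374). In both genes every pool array was below every control array. RpLP1 differed by -0.06, with pool replicate 3 above the lowest control value (adjusted p = 0.686).

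RpL40 and RpS27A are made as fusions with ubiquitin, and RpS30 as a fusion with a ubiquitin-like protein. RpS30 read 8.94, 8.90 and 8.95 in the control and 8.84, 8.79 and 8.68 in the pool. All pool arrays were lower, and the difference was -0.16 with a standard error of 0.058 (adjusted p = 0.243). RpL40 and RpS27A stood at -0.08 and -0.05 with overlapping groups (adjusted p = 0.642 and 0.776). In both of these, control replicate 3 was the lowest of the 6 arrays.

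The 8 minor copies (RpL10Aa, RpL22-like, RpL37-2, RpS5b, RpS10a, RpS19b, RpS28a and RpS28-like) read under 5 on every array, near the low end of the values of these arrays, which started at 3.20. No detection call came with the values, so whether these rows carry signal from their genes in the head is not known. Their median difference was -0.007, with 5 lower and 3 higher in the pool and 0 without overlap. RpS10a had the largest difference of any member, at 4.25, 4.37 and 4.53 in the control and 4.07, 4.04 and 4.26 in the pool. Pool replicate 3 lay above control replicate 1, so the groups overlapped, and the difference was -0.26 with a standard error of 0.090 (adjusted p = 0.216). The 3 members of lowest mean were RpL10Aa (3.80 ± 0.03 in the control and 3.80 ± 0.12 in the pool), RpL22-like (3.77 ± 0.01 and 3.83 ± 0.06) and RpS5b (4.16 ± 0.05 and 4.15 ± 0.03; SD, n = 3 per group). RpL22-like, a testis-enriched relative of RpL22, had the highest positive difference of all members, 0.06 (adjusted p = 0.669), and RpS19b, known from the germline, stood at 0.05 (adjusted p = 0.728).

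Copies of the same protein could be set side by side in 3 cases. RpL37-1 stood at -0.12 and RpL37-2 at -0.04. RpL10Ab stood at -0.04 and RpL10Aa at -0.003. RpS28b stood at -0.07, RpS28a at -0.10 and RpS28-like at 0.008. The sources used here do not say whether the probes tell such copies apart, so the values of genes with close copies are uncertain, and the differences between copies were not tested.

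RpL7-like and RpL24-like are relatives of ribosomal proteins whose yeast counterparts act in assembling the large subunit rather than in the finished particle. RpL7-like read 9.45, 9.52 and 9.31 in the control and 9.41, 9.51 and 9.38 in the pool (difference 0.003, 95% interval -0.16 to 0.16). RpL24-like read 7.41 ± 0.04 and 7.41 ± 0.06 (SD, n = 3 per group), a difference of -0.006. The pool arrays of RpL7-like all fell within the range of its control arrays, and those of RpL24-like spread to both sides of it.

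The 31 genes left after setting aside the 8 minor copies and the 2 assembly relatives, a division made after the values were seen, contained all 18 genes without overlap. Of these 31, 30 had lower means in the pool, the exception being RpL34a. Their median difference was -0.11, or -7.20% on the linear scale. All rows of similar brightness showed no such shift as a whole. Among all 1072 rows with a mean of 10 or more the median difference was 0.00034 and 535 were lower, while the 14 members in that range had a median of -0.11 and all 14 were lower. Among all 2886 rows with a mean from 8 to 10 the median was 0.02, and for the 12 members there it was -0.08, with 10 lower. Among all 5338 rows with a mean from 5 to 8 the median was 0.008, and for the 7 members there it was -0.12, with 7 lower.

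**Figure D3:**
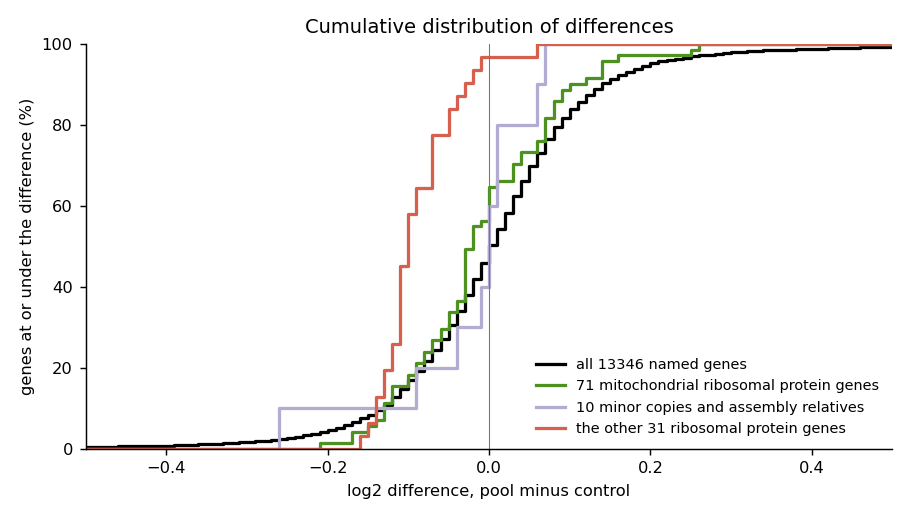
Share of genes (%) at or under each log2 difference, pool minus control, for the 31 ribosomal protein genes, the 10 minor copies and assembly relatives, 71 mitochondrial ribosomal protein genes and all 13346 named genes. The curve of the 31 lies to the left of the others around a median of -0.11, while the curve of all named genes crosses 0 near its middle.

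Whether the shift shows array by array depends on the summary. The plain median of the 41 log2 values was 8.78, 8.79 and 8.66 on control arrays 1, 2 and 3 and 8.79, 8.72 and 8.68 on the pool arrays. These medians overlap, with a mean difference of -0.01, or -0.05 with each array centred on its median, and such a median follows the gene that happens to lie in the middle. With each gene taken relative to its own mean over the 6 arrays, the median over the 41 genes was 0.06, 0.05 and 0.02 on control arrays 1, 2 and 3 and -0.04, -0.03 and -0.05 on the pool arrays. Over all rows the same medians lay between -0.009 and 0.011. All 3 control medians were above 0 and all 3 pool medians below it, with control replicate 3 the nearest to the pool. Control replicate 1 held the highest value of the 6 for 19 of the 41 genes and pool replicate 3 the lowest for 12. Within the control, replicate 1 stood above replicate 3 by a median of 0.05 over the 41 genes, and 29 of the 41 were higher on replicate 1. Many of the genes thus also shifted together between arrays of 1 group, by less than the median of -0.10 between the groups. Between a pool and a control array the median difference ran from -0.12 (pool replicate 3 against control replicate 1) to -0.04 (pool replicate 2 against control replicate 3). Without control replicate 1 the median difference of the 41 genes was -0.07.

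**Figure D4:**
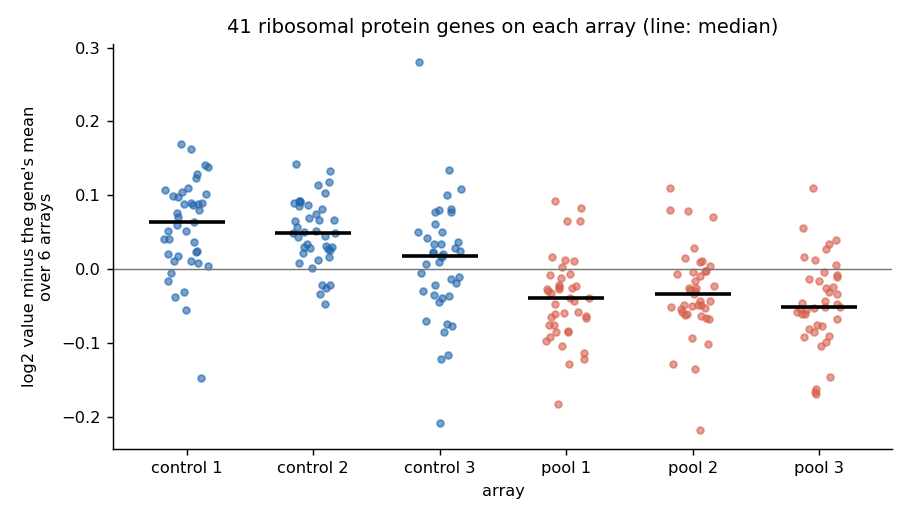
Each point is 1 of the 41 ribosomal protein genes on 1 array, as its log2 value minus its own mean over the 6 arrays, and the black line is the median of the array. The medians were 0.06, 0.05 and 0.02 on the control arrays and -0.04, -0.03 and -0.05 on the pool arrays.

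The size of change that these arrays could have shown was limited by their number. The median standard error of a member's difference was 0.056, the median 95% interval reached 0.13 to either side, and the smallest change called on any row was 0.23 in absolute log2. RpS10a was the 1 member whose difference exceeded that size. For 40 of 41 members the 95% interval left out a reduction of 25% or more, the exception being RpS10a, whose interval reached -27.9%.

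The medians of other lists of translation genes lay nearer to 0, although no list was tested against another. Of 71 mitochondrial ribosomal protein genes, which serve the separate ribosome inside mitochondria, 46 were lower, 0 were called and the median was -0.03. Of these 71, 2 lay wholly below and 4 wholly above the control, against 10% and 11.4% of all rows. The 2 mitochondrial ribosomal protein genes of smallest p were higher, mRpS34 at 0.25 and mRpL20 at 0.25 (limma adjusted p = 0.098 and 0.102). Of 38 measured initiation factor genes 19 were lower and 0 were called (1 at an unadjusted p under 0.05), with a median of -0.001. They included eIF3m, a subunit of the factor that binds the small subunit, at -0.13 and eIF6, the factor that keeps the subunits apart, at 0.13 (adjusted p = 0.277 and 0.374). Of 7 elongation and release factor genes 4 were lower and 0 were called (0 at an unadjusted p under 0.05). Among them eEF1gamma, a subunit of the elongation factor 1 complex, stood at -0.09 with every pool array below every control array (adjusted p = 0.419).

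Of 37 ribosome assembly genes 16 were lower, 0 were called (1 at an unadjusted p under 0.05) and the median was 0.01. The nucleolar GTP-binding protein gene Non1 stood at -0.14 (adjusted p = 0.248). Of 17 cytosolic aminoacyl-tRNA synthetase genes, whose enzymes load amino acids onto transfer RNA, 6 were lower, 0 were called (1 at an unadjusted p under 0.05) and the median was 0.02. CysRS and LeuRS stood at 0.20 and 0.16 (adjusted p = 0.286 and 0.356). Of 17 genes for factors at the nascent chain or bound to the ribosome 11 were lower, 0 were called (1 at an unadjusted p under 0.05) and the median was -0.05. Rack1, a scaffold protein that sits on the small subunit, read 8.47, 8.46 and 8.51 in the control and 8.42, 8.30 and 8.34 in the pool. Its difference was -0.13, without overlap (adjusted p = 0.331).

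Of 18 genes that regulate ribosomal protein output 0 were called (1 at an unadjusted p under 0.05), 8 were lower and the median was 0.01. REPTOR, a transcription factor held back by TOR signalling, read 8.55, 8.65 and 8.66 in the control and 8.76, 8.75 and 8.89 in the pool, a difference of 0.18 without overlap (adjusted p = 0.214). The TOR target kinase gene S6k stood at -0.01. The list of genes linked to altered ribosomal protein dose and to cell stress was the 1 list of the pathway with calls. Of its 12 measured genes 3 rose and 0 fell by the test, against 1.54% and 1.28% of all named genes. In all, 9 had higher and 3 lower means in the pool, and the median was 0.07. At an unadjusted p under 0.05 there were 5, of which 1 was lower. PEK stood at -0.18, with every pool array below every control array (limma adjusted p = 0.113). Xrp1 was not among the 12. Irbp18, the partner of the transcription factor Xrp1 in the response of flies to Minute mutations, rose from 8.50 to 8.81 (0.31, limma adjusted p = 0.0267). The stress gene Gadd45 rose by 0.55 and the transcription factor gene Ets21C by 0.39 (limma adjusted p = 0.0075 and 0.0227). Ets21C read under 5 on every array, as the minor copies did, with means of 4.42 in the control and 4.81 in the pool. Whether its row carries signal from the gene is likewise not known. Gadd45 kept its call with any 1 array left out. Ets21C passed only when the array left out was control replicate 3 or pool replicate 3 (largest adjusted p 0.0868), and Irbp18 only when it was control replicate 2 (largest 0.108), so 1 or 2 of the 3 calls were left. These 3 genes also answer to stress and injury in general, and whether their rise belongs with the ribosomal protein values was not tested.

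Markers of several other cell types moved with the groups. Of all named genes, the test called 1.54% higher and 1.28% lower in the pool. Of all rows, 11.4% lay wholly above and 10% wholly below the control. Among rows with a mean of 10 or more these shares were 23.5% and 22.0%. Of 8 measured muscle genes 5 rose and 0 fell, and in all 8 every pool array lay above every control array. The median level of that list was 7.85 to 7.88 on the control arrays and 8.84 to 8.89 on the pool arrays. Of 6 photoreceptor genes 1 rose and 0 fell, 5 had higher means in the pool and the median difference was 0.10 (list median level 11.95 to 11.99 in the control and 12.17 to 12.24 in the pool). Fat body genes went both ways: Lsp2 and Obp99b rose and 0 of 8 fell by the test, but the other 6 had lower means in the pool, 4 of the 8 lay wholly below the control, and the median difference was -0.08. Of 11 glial genes 2 fell and 0 rose, 8 had lower means and the median difference was -0.07. That list includes nrv2, the RNA interference target of 1 line of the pool. The median difference was the value of nrv2 itself. Of 7 hemocyte genes PPO1 and PPO2 fell and 0 rose by the test. Hml also had a lower mean, at -0.17 with every pool array below every control array (limma adjusted p = 0.134). The other 4 had higher means in the pool, among them NimC1 at 0.18 and Col4a1 at 0.15 (limma adjusted p = 0.326 and 0.332). The median difference of the hemocyte list was 0.002. Of 8 neuronal genes 0 were called (0 at an unadjusted p under 0.05) and the median difference was -0.0008. The median levels of the fat body (12.13 to 12.14 and 12.28 to 12.32), glial (8.53 to 8.64 and 8.74 to 8.82) and hemocyte lists (8.04 to 8.14 and 8.16 to 8.32) were higher on the pool arrays, against the sign of the median difference for fat body and glia, and that of the neuronal list overlapped (10.27 to 10.31 and 10.21 to 10.28). No marker was listed at 0, since array values have no zero. With any 1 array left out, 3 muscle genes and 0 photoreceptor genes were called, and the glial calls went from 2 to 1 unless the array was control replicate 3. The part of these shifts in the ribosomal protein values was not tested.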

How the data were processed

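RNA of fly heads was measured on 6 arrays, 3 control and 3 pool, grouped by the labels' titles. The deposited values are 1 log2 number per row and array; the scale was inferred from their range (3.20 to 14.02). Per the submitters' processing notes the authors used Affymetrix Expression Console; no version, algorithm or genome build is named in the sources used here. If arrays were normalized to each other, a change shared by the bulk of transcripts is no longer in the values. The values were used as deposited.

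Rows were named through the platform's annotation table, with 144 symbols updated through RefSeq. Of 16322 rows 13441 had 1 symbol, 555 had several and 2326 had none; 11 rows that name a ribosomal protein gene with another gene were not members. Pool and control were compared over all rows with limma 3.58.1 (R 4.3.3, lmFit and eBayes, 4 residual and 3.78 prior degrees of freedom), two-sided, with Benjamini-Hochberg adjustment at 0.05. Lists are described by counts and medians, without a list test. The members and lists were chosen with earlier results of these data known. The fit was run on simulated arrays with independent noise in each row and added changes larger than the median difference reported here. Those arrays had no shift shared by many rows, so the run does not bear on small shared differences. Fully described were members called, the 6 lowest and 3 highest differences, and the 3 highest and 3 lowest levels. Measured copies and the 3 members of smallest p were described as well. Further members were named after their values were seen. Each other list was to give up to 3 called genes or the 2 of smallest p, and not all of these are named. Outside that choice, PEK, repo, nrv2, S6k, Hml, NimC1 and Col4a1 were added after their values were seen. Same-numbered arrays showed little shared deviation (correlations of -0.014, -0.005 and 0.090, against -0.067 to 0.078 for differently numbered arrays). The labels do not say that numbers pair arrays, and this check cannot exclude it, so arrays were treated as unpaired in the main fit. The alternatives tried are given in the closing section. Figures were drawn with matplotlib 3.10.9. Sequences of the genes and coordinates are not used here.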

Additional observations from a re-analysis of the deposited data

How the results depend on the processing

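No ribosomal protein gene was called in limma under quantile normalization, median centring, the dim-row filter, 1-symbol rows, array weights, an adjusted p of 0.1, or with any 1 array left out (0 to 0). With a trend and robust prior 2 were called, RpS12 and RpL37-1; the cause was not tested. With the replicate number as a replicate block 0 were called, the median difference stayed at -0.10, and 312 rows were called in all against 473. The median was -0.13 with arrays centred on their medians, -0.078 as a mean over members, -0.11 without the minor copies and assembly relatives (added after seeing the data), and -0.11 to -0.070 with 1 array left out; 33 to 38 members were lower under all settings but the dim-row filter, which kept 38 members, 34 of them lower. Signs turned only in members near 0: RpS5b (0.00098) with array weights, RpS28-like (-0.025) with centring, RpL10Aa (0.0026) with quantile normalization, and RpL7-like with quantile normalization (-0.011), centring (-0.030) and array weights (-0.020). With 1 array left out, signs turned in 9 members: RpL34a ran from -0.039 to 0.10, RpL37-2 from -0.098 to 0.014, RpL39 from -0.10 to 0.0065, RpL15 from -0.031 to 0.0020, RpS5b from -0.037 to 0.0076, RpL24-like from -0.035 to 0.021, RpS28-like from -0.064 to 0.064, RpL10Aa from -0.059 to 0.060 and RpL7-like from -0.054 to 0.047. The number of arrays, and values near the low end of the scale for the minor copies, limit the precision.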

Other observations

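The array also has 11 rows that name a ribosomal protein gene together with another gene, 8 of them with RpS7 or RpL3 and a small nucleolar RNA. None was called (0 of 11 in limma, 1 at an unadjusted p under 0.05), 7 were lower in the pool, and their median difference was -0.04. Of the 11, 1 lay wholly below and 1 wholly above the control, against 10% and 11.4% of all rows.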
